A study of Arabidopsis thaliana with 20 samples.

Results

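Transcripts whose array signal was already higher 0.5 h after cordycepin, and still higher at 4 h, were examined in Arabidopsis cultured cells. A probe set is the group of probes that reads 1 transcript, or a few alike ones, on the array. Members had a log2 intensity at least 1 above the 0 h array at both 0.5 h and 4 h at 22 °C, which is at least a doubling, and an intensity of at least 61.4 on 2 or more of the 20 arrays. The rule found 94 probe sets. Of these, 4 are not analysed here and 1 is a bacterial control, which left 89 of 22746 gene probe sets, 12801 of which passed the intensity minimum. The platform table gives a single gene for 56 of the 89 members and more than 1 gene for 3. The remaining 30 carry no name in it.

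Cordycepin is an adenosine analogue that lacks the hydroxyl group needed to extend an RNA chain, so it is used to stop RNA synthesis and follow the loss of existing transcripts. After such a block most mRNAs are lost at their own rates, and the signal of a transcript on arrays scaled to one another is its amount relative to the others. Plant cells in the cold accumulate dehydrins and chaperones, proteins that protect membranes and proteins under stress.

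The cells were T87, a suspension line of the Col-0 ecotype. The 4 cold series stood at 4 °C in dim light of 40 µmol per square metre and second for 6, 12, 24 or 36 h before cordycepin, and each was read at 0, 4, 8 and 12 h of cordycepin. The series at 22 °C stood in 80 µmol of light and was read at 0, 0.5, 2 and 4 h. Every combination of temperature, cold duration and cordycepin time has 1 array, so no condition has replicates, and light differs with temperature. The titles give 6 h of cold, which the growth protocol does not list.

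Array medians were 60.02 to 68.6 in the cold series, and 50.3 to 64.4 at 22 °C, on the linear intensity scale. Precision is set by the number of arrays. Of the markers of dividing cells, the histone gene HTB2 and the mitotic kinase genes AUR1 and AUR2 had log2 intensities of 12.1, 9.63 and 8.28 at 22 °C before cordycepin. The markers of differentiated cells that the array names, FMA of guard cells and EXPA7 of root hairs, stayed below the minimum on all 20 arrays. The arrays read bulk RNA, in which fewer cells of a type and less RNA per cell cannot be told apart. Of 24 probe sets for bacterial poly(A) control RNAs, which the standard labelling protocol adds to the sample, 11 passed the minimum.

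At 22 °C the members' gains, meaning log2 intensity minus the 0 h value, are a description, because the members were chosen by the intensities of the 0, 0.5 and 4 h arrays of that series. The median gain was 1.33 at 0.5 h, 1.96 at 2 h and 2.03 at 4 h, with ranges of 1.01 to 3.99, 1.14 to 5.04 and 1.02 to 5.46. On the 0 h array only 18 of the 89 members reached the intensity minimum, and the members' median log2 intensity was 4.79. Low signal there limits how well the size of most gains is known. The 2 h array took part in the rule only through the intensity minimum, and it is set against the same 0 h array. All 89 members had a gain of at least 1 there. Over the 12801 probe sets the medians were 0.07, -0.07 and -0.18, and gains of at least 1 were found in 0.836% at 0.5 h, 3.63% at 2 h and 7.57% at 4 h. Both gains of the rule were found in 0.727%, the members and the 4 left out.

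Much of the gain was present by 0.5 h. At that time the median member had 72.6% of its 4 h gain. A large early share was favoured by the rule, which asks for a gain of at least 1 at 0.5 h. The highest of the gains stood at 0.5 h for 4 members, at 2 h for 41 and at 4 h for 44.

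The poly(A) controls were also higher after cordycepin at 22 °C. Their median gain was 0.63 at 0.5 h, 1.34 at 2 h and 1.88 at 4 h, over 11 probe sets. Set against the mean of these controls, which was higher by 0.71 at 0.5 h and 1.92 at 4 h, all 89 members were above 0 at 0.5 h with a median of 0.62, and 51 were above 0 at 4 h with a median of 0.10. The count at 0.5 h was fixed by the rule, because its minimum gain of 1 is larger than 0.71. The rule itself was met by 8 members on that scale. They include AT5G01015, AT5G45180, AT4G02850 and AT1G71420, and the other 4 have no single gene name.

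**Figure D1:**
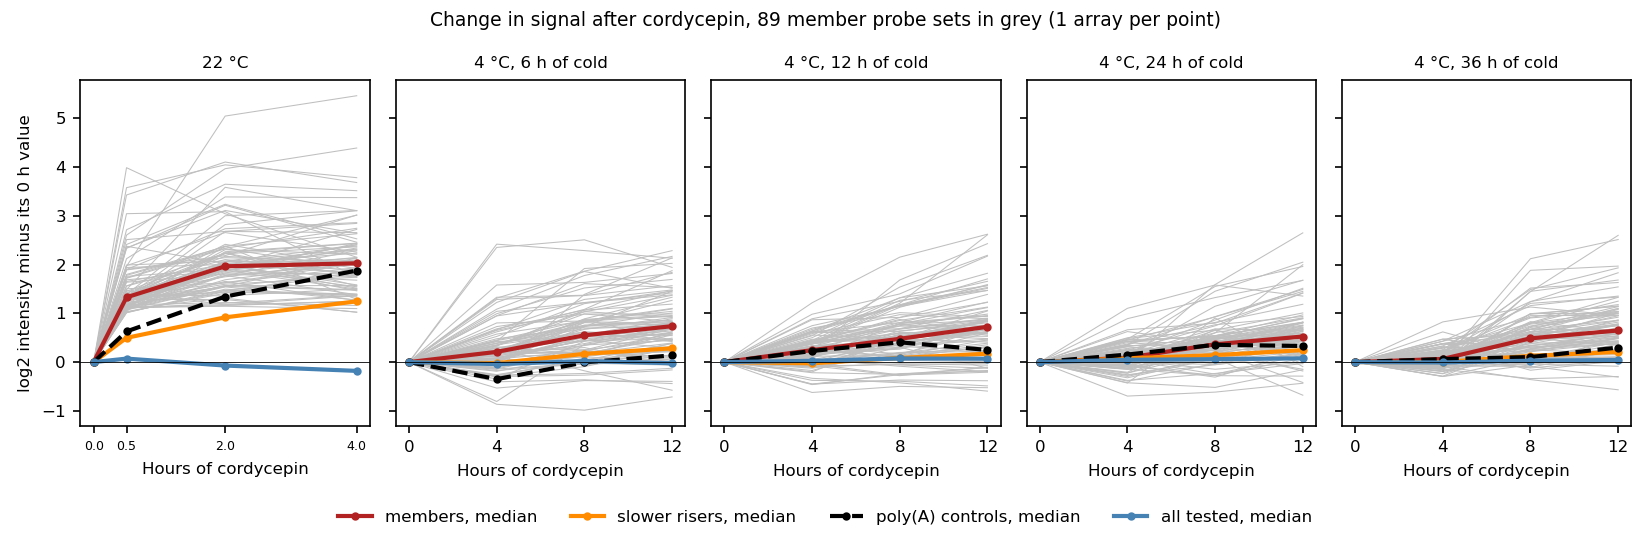
Change in log2 intensity from the 0 h array (vertical axis) against hours of cordycepin (horizontal axis) in the series at 22 °C and in the cold series of 6, 12, 24 and 36 h, with 1 array per point. Grey lines are the 89 members, and coloured lines are medians of the members, of 872 slower risers (a gain of at least 1 at 4 h but under 1 at 0.5 h), of 11 poly(A) controls and of 12801 probe sets. At 22 °C the members' median stands above 1 at 0.5 h and the poly(A) controls approach it by 4 h, whereas in the cold the members' median lies above that of the controls by 12 h.

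AT5G01015 had the largest gain of the named members at 0.5 h. Its log2 intensity at 22 °C was 4.98 at 0 h, 8.56 at 0.5 h, 9.02 at 2 h and 8.76 at 4 h, so that the 0.5 h signal was 11.9 times that at 0 h. The 0 h value lay below the intensity minimum. AT5G45180, of the flavin-binding monooxygenase family, which oxidises small molecules, had 3.94, 6.65, 7.58 and 7.45 at the same times. Both stood at a plateau by 2 h.

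AT4G11710, a pseudogene in the TAIR10.1 annotation, had log2 intensities of 3.76, 6.17, 7.00 and 6.29 at 0, 0.5, 2 and 4 h. The corresponding values of AT3G60760 were 3.38, 5.73, 6.49 and 6.02. AT1G75960, of the AMP-dependent ligase family that activates acids, had 3.70, 6.04, 6.92 and 6.16. All of these were highest at 2 h and lower at 4 h. AT3G56600, of the phosphatidylinositol 4-kinase gamma family of lipid signalling, was the exception among the leading genes, with its highest value at 0.5 h. Its log2 intensity was 4.39, 6.77, 6.41 and 5.91 at 0, 0.5, 2 and 4 h.

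The other leading members by their smaller gain were AT4G21323, a subtilase protease, AT5G63390 of the O-fucosyltransferase family, AT4G02850, AT4G29980, AT1G71420, AT1G69280, AT3G05430, AT1G56060 and AT1G35710, a leucine-rich repeat receptor kinase. Their gains at 0.5 h ran from 1.56 to 1.99. The members just inside the threshold were AT5G27460, with a smaller gain of 1.02, AT4G22212, AT1G18090, AT2G39160 and AT4G29200, with 1.10. Just outside it were AT3G50685 (1.00), AT5G01480, AT4G33080, EEL, a bZIP transcription factor gene, and UBP25, a ubiquitin-specific protease gene (0.98). The values on both sides of the threshold adjoin, so it marks no natural break.

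**Figure D2:**
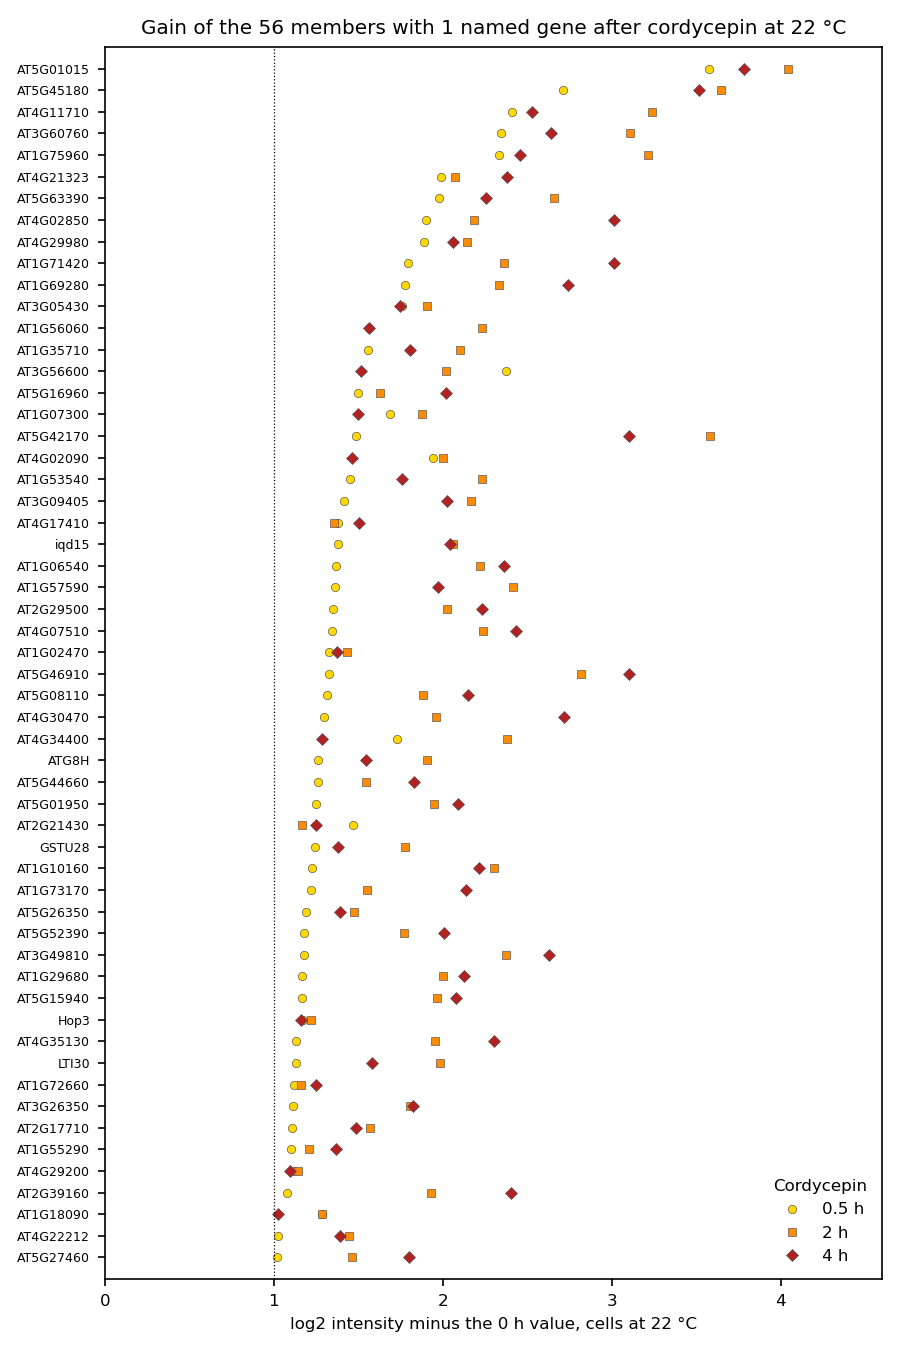
Gain in log2 intensity over the 0 h array at 22 °C (horizontal axis) of the 56 members with 1 named gene (rows, ordered by the smaller of the 0.5 h and 4 h gains), at 0.5, 2 and 4 h of cordycepin, with 1 array per point. The dotted line is the minimum gain of 1 that chose the members at 0.5 h and 4 h; AT5G01015 leads at all 3 times.

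By known roles, assigned after the members were found, the named members are mixed. The 11 with an enzyme role had gains of 1.10 to 2.71 at 0.5 h and of 1.25 to 3.51 at 4 h. They hold the 2-oxoglutarate-dependent hydroxylase gene AT1G55290, the tau-class glutathione transferase gene GSTU28, the zinc-binding dehydrogenase AT5G16960, the pectin acetylesterases AT1G57590 and AT3G09405, the GDSL lipase AT5G42170 and the papain-type protease AT2G21430, besides the ligase, the monooxygenase, the subtilase and the fucosyltransferase above. AT5G42170 had the largest 2 h gain of these after AT5G45180, with log2 intensities of 3.21, 4.70, 6.79 and 6.31.

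Signalling genes were AT1G35710 and AT5G01950, both receptor kinases with leucine-rich repeats, iqd15, which encodes a calmodulin-binding IQ-domain protein, and AT3G56600. Genes acting on DNA or chromatin were AT5G46910, a Jumonji-type histone demethylase, AT4G34400, a B3 transcription factor, AT5G08110, a helicase, and AT1G18090, of an exonuclease family. AT5G46910 had log2 intensities of 5.05, 6.38, 7.87 and 8.15 at 0, 0.5, 2 and 4 h, still higher at each later time. AT4G34400 was instead highest at 2 h, with 4.62, 6.35, 7.00 and 5.91.

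Pentatricopeptide repeat proteins, which bind organelle RNAs, were AT5G27460, AT4G35130 and AT1G71420. Ubiquitin ligases were AT4G17410, a RING type, and AT3G49810, a U-box type. Their gains at 4 h were 1.51 and 2.63.

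The heat-induced group held the class I small heat shock protein genes AT1G53540 and AT2G29500, Hop3, which encodes a cochaperone that links Hsp70 and Hsp90, and AT1G72660, of a GTP-binding family. At 22 °C AT1G53540 had log2 intensities of 5.86, 7.31, 8.10 and 7.62 at 0, 0.5, 2 and 4 h. AT2G29500 had 5.64, 7.00, 7.67 and 7.88. Hop3 had 7.77, 8.94, 8.99 and 8.93, a step by 0.5 h with less than 0.1 between the later arrays. LTI30, a dehydrin gene of cold and drought, had 4.23, 5.36, 6.21 and 5.81. ATG8H, of the ubiquitin-like family that builds autophagosomes, had 3.39, 4.65, 5.30 and 4.94.

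The cold arrays took no part in the rule except through the intensity minimum, so they carry the tests. In each test limma, which pools the spread over all probe sets, was fitted to the 16 cold arrays with the 4 series as blocks, and p-values were adjusted over all 12801 probe sets by the Benjamini-Hochberg method. The standard errors come from how single arrays depart from the fitted values, not from replicate cultures. After 4 h of cordycepin in the cold, no member was called higher or lower than at 0 h at an adjusted p under 0.05. The percentage of all probe sets called was also 0.0% in both directions. At an unadjusted p under 0.05, 22 members were higher and 0 lower, against 449 higher and 563 lower among the 12801. The adjusted count for the members was 0 under each alternative run too. The members' median 4 h change was 0.16.

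The nearest to a call at 4 h was GSTU28. Its log2 intensity was 4.95, 5.68, 5.93 and 5.93 at 0, 4, 8 and 12 h in the series of 6 h of cold, 5.33, 5.92, 6.31 and 6.22 after 12 h of cold, 5.32, 5.82, 6.13 and 6.51 after 24 h, and 5.30, 5.53, 6.21 and 6.34 after 36 h. It was higher at 4 h than at 0 h in all 4 series, by 0.51 ± 0.10 (SE), with an adjusted p of 0.264.

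After 12 h of cordycepin in the cold, 68 of the 89 members were higher than at 0 h and 0 were lower, at an adjusted p under 0.05. Among all probe sets 18.3% were higher and 15.9% lower. The members' median change was 0.69, against 0.05 over all probe sets. The intensity was above its 0 h value in all 4 series for 65 members and for 63 of the 68 called. The share of all probe sets with this was not counted. By single series 80, 75, 78 and 84 members were above it after 6, 12, 24 and 36 h of cold. Among the 12801 probe sets 6074, 7225, 7596 and 7252 were. A 12 h change of at least 1 was found for 27 members in the series of 6 h of cold, for 22 after 12 h, for 14 after 24 h and for 24 after 36 h, against 2.91%, 1.05%, 0.406% and 0.297% of all probe sets. Part of the list had little signal in the cold. The minimum was reached on no cold array by 29 members, on all 16 by 22 and on 1 to 15 by 38. Of the 58 members that reached it on 2 or more cold arrays, 40 (69.0%) were called higher. The other 28 calls were among the 31 members (90.3%) that reached it on fewer than 2 cold arrays, and so passed the minimum through the 22 °C arrays where they were high.

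On the scale of the poly(A) controls, which were higher by a mean of 0.27 at 12 h in the cold, 40 members were called higher and 4 lower, against 0.578% and 32.4% of all probe sets. All 40 were among the 68. Centring each array on its median instead moved every change up by 0.13, and 77 members were then called higher and 0 lower, against 41.4% and 11.2% of all probe sets.

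AT5G45180 had the largest 12 h change of the members. Its log2 intensity was 4.11, 3.96, 5.50 and 6.24 at 0, 4, 8 and 12 h in the series of 6 h of cold, 4.21, 4.45, 5.89 and 6.63 after 12 h of cold, 4.15, 4.17, 5.74 and 6.80 after 24 h, and 4.37, 4.38, 6.49 and 6.89 after 36 h. At 12 h all 4 series stood above every 0 h and 4 h value. The change was 2.43 ± 0.12 (SE), or 5.40-fold, with an adjusted p of 7.59e-07, whereas its 4 h change was 0.03 ± 0.12 with an adjusted p of 0.959.

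AT5G01015 had 5.17, 6.12, 6.78 and 6.70 after 6 h of cold, 5.26, 6.24, 6.66 and 7.43 after 12 h, 5.29, 6.18, 6.61 and 6.96 after 24 h, and 5.17, 5.18, 6.41 and 7.00 after 36 h. The 36 h series was level up to 4 h, where the other 3 series were already higher by 0.89 to 0.98. Its 12 h change was 1.80 ± 0.17, or 3.49-fold (adjusted p = 2.60e-05).

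AT4G02090 rose by 1.77 ± 0.19 (adjusted p = 4.91e-05), AT4G02850 by 1.42 ± 0.18 (1.46e-04), the pseudogene AT4G11710 by 1.34 ± 0.14 (3.49e-05) and AT1G69280 by 1.27 ± 0.15 (8.68e-05). AT4G11710 was below the intensity minimum on all 16 cold arrays, and its probe set is of a kind that can match several transcripts. In AT1G69280 the 12 h values lay close together, from 7.00 to 7.34, while the 0 h values ran from 5.17 after 6 h of cold to 6.43 after 36 h.

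All 11 genes given an enzyme role here rose by 12 h in the cold, by 0.49 to 2.43. So did all 4 given a signalling role, by 0.70 to 1.00, and all 4 given one on DNA or chromatin, by 0.63 to 0.75. Both ubiquitin ligase genes rose, by 0.73 and 0.78, and all 4 pseudogenes, by 0.27 to 1.34. The roles were assigned after the members were found, so these counts depend on which genes were given a role. They include genes that reached the intensity minimum on fewer than 2 cold arrays, such as AT1G75960, AT5G63390, AT1G35710, AT3G56600 and AT4G11710. Of all probe sets 18.3% were called higher. Of the 3 pentatricopeptide repeat genes, AT1G71420 and AT4G35130 rose, by 0.86 ± 0.19 and 0.59 ± 0.12, and AT5G27460 did not pass the test. Among the 22 genes with no role given here 17 rose, and 23 of the 33 members without a single gene name did. On the poly(A) control scale 28 of the 68 calls were lost, including those of AT1G18090, AT1G71420, AT1G75960, AT2G39160, AT3G49810, AT3G60760, AT4G22212, AT4G29980, AT5G15940, AT5G46910 and ATG8H. Leaving out 1 cold series ended some calls as well. That of AT1G18090 was lost without the 12 h (0.39, adjusted p = 0.216), 24 h or 36 h series, that of AT3G49810 without the 6 h (0.49, adjusted p = 0.0587), 24 h or 36 h series and that of AT5G46910 without the 36 h series (0.68, adjusted p = 0.0786). ATG8H had 0.30 without the 6 h series (adjusted p = 0.0818) and was also not called without the 12 h or 36 h series. AT3G60760, AT4G22212 and AT5G15940 each lost the call without the 12 h series and without at least 1 other.

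**Figure D3:**
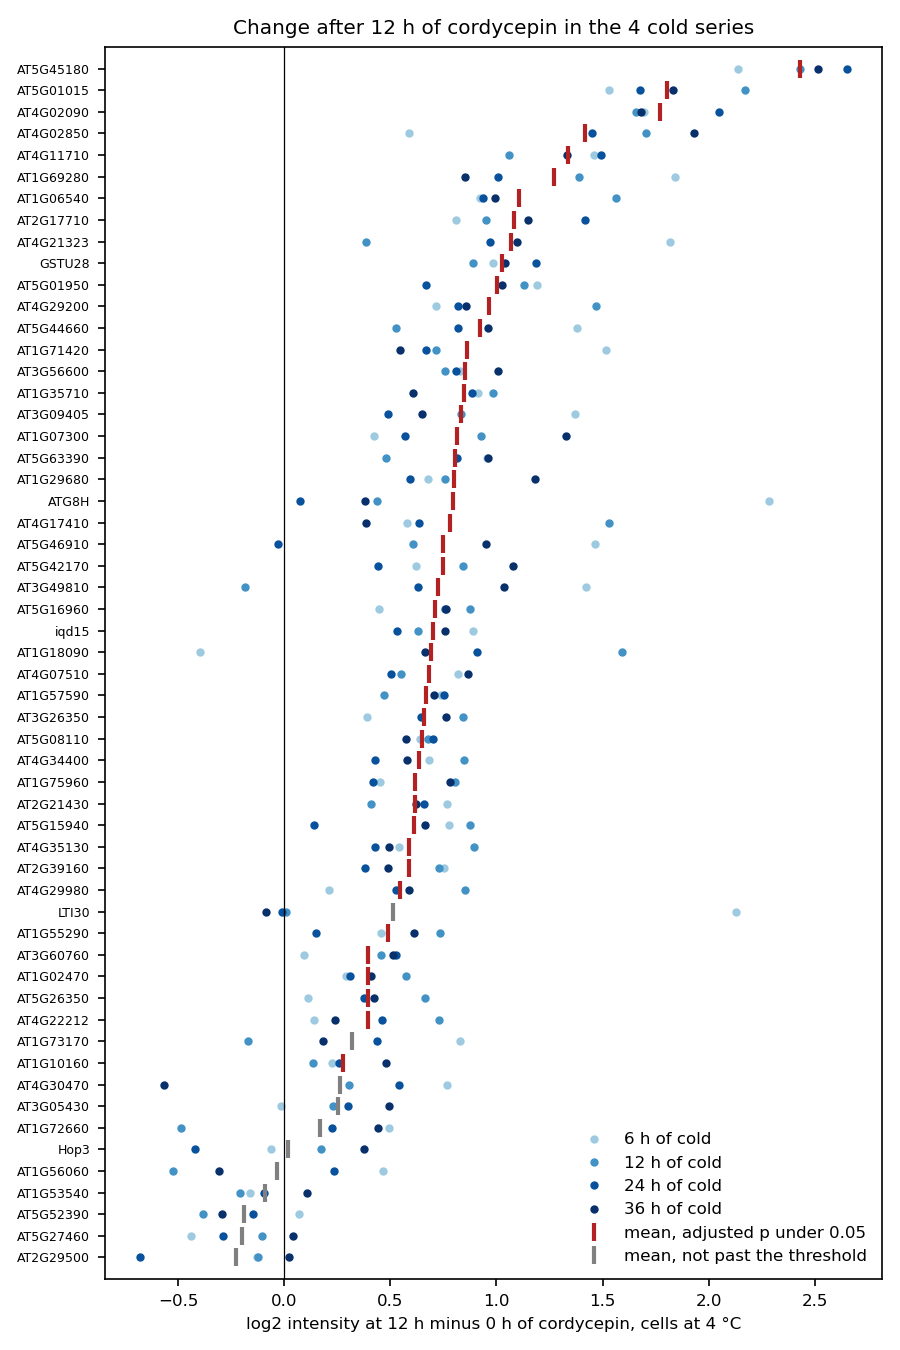
Log2 intensity at 12 h minus 0 h of cordycepin at 4 °C (horizontal axis) for the 56 members with 1 named gene (rows, ordered by their mean change); each point is the difference of 2 arrays in 1 cold series. Bars mark the mean over the 4 series, red where limma's adjusted p over all probe sets was under 0.05; 45 of the 56 are red, and the means of the 4 heat-induced genes run from -0.23 to 0.17.

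The heat-induced genes had no call at 12 h in the cold on the deposited scale. AT1G53540 had 12 h changes of -0.16, -0.21, -0.09 and 0.11 in the series of 6, 12, 24 and 36 h of cold, with a mean of -0.09 ± 0.20 (SE, adjusted p = 0.754). In AT2G29500 the mean was -0.23 ± 0.14 (adjusted p = 0.210), and on the poly(A) control scale this gene was called lower, at -0.50 (adjusted p = 0.00951). Hop3 had 0.02 ± 0.11 (0.918) and AT1G72660 0.17 ± 0.13 (0.338), which was called higher without the 12 h series, at 0.39 (0.0220). The other named members that did not pass were LTI30, AT5G27460, AT3G05430, AT1G56060, AT4G30470, AT1G73170 and AT5G52390, which makes 11 of 56. Of these, AT5G27460 and AT5G52390 were called lower on the poly(A) control scale, at -0.47 (adjusted p = 0.00394) and -0.46 (0.0237).

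Most of the rise in the cold lay after 4 h. Between 4 h and 12 h, 55 members rose and 0 fell, against 10.0% and 11.6% of all probe sets, and 53 of these were also among those called at 12 h over 0 h. The median later change was 0.52. Without the series of 36 h of cold, 30 members were called.

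A slope fitted to the 4 times of each cold series and averaged over the series was above 0 for 74 members and below 0 for 1, against 29.9% and 21.3% of all probe sets. Of the 58 members at the intensity minimum on 2 or more cold arrays, 46 (79.3%) had rising slopes. Of the 31 members at it on fewer than 2, 28 (90.3%) did. The falling member was AT5G27460, at -0.02 ± 0.01 log2 units per hour (adjusted p = 0.0305). Its log2 intensity in the cold was 7.02 to 7.46 at 12 h and 7.41 to 7.46 at 0 h. The call was lost without the 6, 12 or 24 h series and with arrays centred on their median or on reference genes.

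The slopes differed among the 4 cold series for 10 members (11.2%), by an F test at an adjusted p under 0.05, near the 12.2% of all probe sets. Without the 6 h series 1 call was left, against 0.281% of all probe sets. Without the 12 h series 5 were left, against 3.72%, and on the poly(A) control scale there were 3, against 3.71%. ATG8H is an example. In the series of 6 h of cold its log2 intensity was 4.20, 5.52, 6.07 and 6.49 at 0, 4, 8 and 12 h of cordycepin. In the other 3 cold series it was between 6.15 and 6.86 on every array. Its slope ran from 0.001 log2 units per hour in the 24 h series to 0.185 in the 6 h series (adjusted p = 0.00948).

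LTI30 had the same form with a larger step. After 6 h of cold it had 10.47, 12.88, 12.75 and 12.59 at 0, 4, 8 and 12 h, and in the 12, 24 and 36 h series 13.91 to 14.17 on every array. The series of 6 h of cold was thus lower at 0 h than the later series, and 2.42 higher at 4 h of cordycepin than at 0 h. Its slopes did not pass the test of a difference (adjusted p = 0.172). AT1G18090 was the converse, with 5.43, 4.90, 5.05 and 5.03 after 6 h of cold and 4.54, 4.90, 5.66 and 6.13 after 12 h (adjusted p = 0.00852).

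Before cordycepin most members had like signals in cold and control cells. A larger share of the members than of all probe sets was at least 1 log2 unit higher in the cold. The mean of the 4 cold 0 h arrays was within 1 log2 unit of the lone 22 °C array for 69 members, at least 1 above it for 19 and at least 1 below it for 1. Among all probe sets 6.74% were at least 1 above and 1.74% at least 1 below. These are descriptions, since the 22 °C array took part in the rule, and members with a low value there were favoured by it. The median difference was 0.24.

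The largest difference was that of LTI30. It had 13.13 ± 1.78 (SD, n = 4 cold durations) before cordycepin in the cold, against 4.23 at 22 °C. AT1G53540 had 11.54 ± 0.63 in the cold and 5.86 at 22 °C, and AT2G29500 had 10.59 ± 0.49 and 5.64. All 3 were below the intensity minimum on the 22 °C array, where low signal limits the size of the difference. The 3 probe sets without a single gene name that lay nearest to these genes had differences of 4.97 to 6.24. ATG8H had 5.91 ± 1.16 in the cold and 3.39 at 22 °C. AT4G22212, a defensin-like gene, had 6.29 ± 0.24 and 4.07. AT1G72660 had 6.59 ± 0.45 in the cold and 4.74 at 22 °C, and Hop3 had 9.35 ± 0.46 and 7.77. AT1G56060, AT5G15940, AT4G21323 and AT4G30470 were the other named members at least 1 above, with differences of 1.06 to 1.69.

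**Figure D4:**
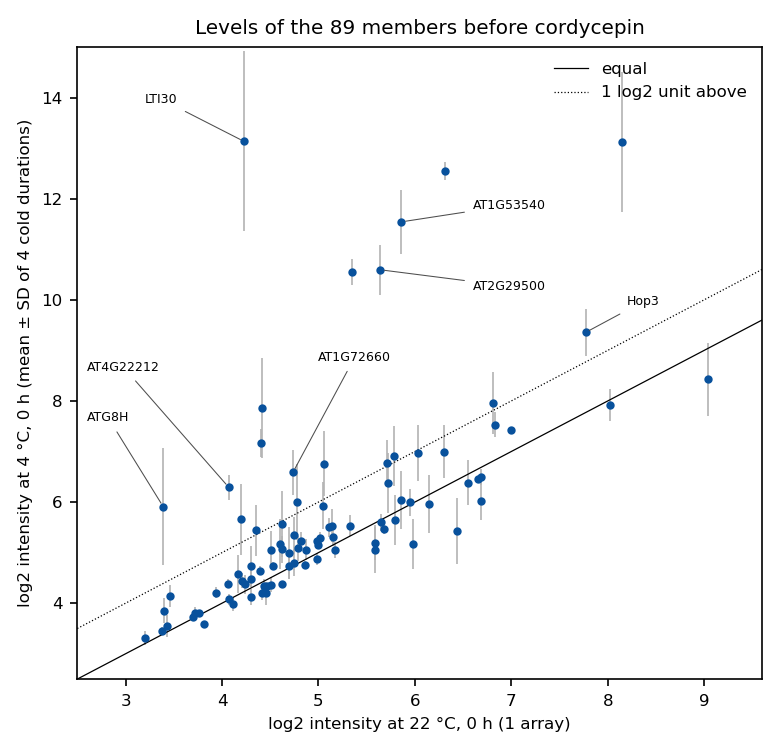
Log2 intensity before cordycepin in the cold (vertical axis, mean ± SD of the 0 h arrays of 4 cold durations) against that at 22 °C (horizontal axis, 1 array) for the 89 members. Most points lie near the line of equal values, and LTI30, AT1G53540 and AT2G29500 lie 5 to 9 units above it with 3 probe sets that have no single gene name.

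After 12 h of cordycepin in the cold, 50 members were still below their 0.5 h level at 22 °C in all 4 cold series and 15 were above it in all 4. The 7 with 1 named gene among the 15 were LTI30, AT1G53540, AT2G29500, ATG8H, AT1G72660, AT4G22212 and AT3G49810. The 0.5 h array at 22 °C took part in the rule, so members were chosen for high values on it, which favours lower levels elsewhere. The times after cordycepin also differ between the temperatures. These levels are therefore given side by side and not tested.

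Over cold duration, at equal cordycepin times, 23 members (25.8%) rose and 13 (14.6%) fell, against 22.6% and 28.6% of all probe sets. Cold duration runs with time in culture, and these cannot be told apart. Without the 6 h series 9 members rose, against 9.41% of all probe sets, and without the 36 h series 15 did, against 21.9%. The steepest rise per 24 h of cold among named members was that of LTI30, 1.16 ± 0.26 (SE, adjusted p = 0.00241), and its values place that rise between 6 h and 12 h of cold. Without the 6 h series its trend was 0.0753 (adjusted p = 0.220). AT1G56060, of the cysteine-rich transmembrane module family, rose by 1.01 ± 0.11 (1.78e-05). Its log2 intensity was 6.03 to 6.50 after 6 h of cold, 6.00 to 6.62 after 12 h, 6.47 to 7.01 after 24 h and 7.28 to 7.59 after 36 h, so only the last series lay wholly above the others.

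AT5G15940 rose by 0.93 ± 0.11 per 24 h (2.84e-05), the ubiquitin ligase gene AT4G17410 by 0.67 ± 0.11 (2.98e-04), AT1G06540 by 0.47 ± 0.09 (0.00129) and AT1G18090 by 0.47 ± 0.17 (0.0316). Some of these calls rest on 1 series. Without the 6 h series AT4G17410 had 0.27 (adjusted p = 0.243) and AT1G06540 0.35 (0.0980). Without the 36 h series AT1G06540 had 0.25 (0.228) and AT1G18090 0.0942 (0.837), and the call of AT1G18090 was also lost without the 24 h series. Of the heat-induced genes, 3 went the other way. Hop3 fell by 0.69 ± 0.08 per 24 h (adjusted p = 4.29e-05), with log2 intensities of 9.84 to 9.97 after 6 h of cold, 9.56 to 9.93 after 12 h, 8.62 to 9.26 after 24 h and 8.91 to 9.29 after 36 h. The 6 h and 12 h series thus lay above the 24 h and 36 h series on every array. AT2G29500 fell by 0.68 ± 0.10 (1.52e-04) and AT1G72660 by 0.58 ± 0.10 (3.93e-04). Without the 6 h series AT2G29500 had -0.42 (adjusted p = 0.0566). AT1G53540, the other small heat shock gene, had a trend of -0.01 ± 0.15 (0.947).

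AT5G52390 fell by 0.69 ± 0.08 (4.29e-05), AT5G46910 by 0.44 ± 0.13 (0.0146) and AT4G22212 by 0.43 ± 0.07 (3.18e-04). AT5G46910 had -0.27 without the 12 h series (adjusted p = 0.188), -0.57 without the 36 h series (0.107) and -0.30 on the poly(A) control scale (0.144). AT4G22212 had -0.25 without the 36 h series (0.137).

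**Figure D5:**
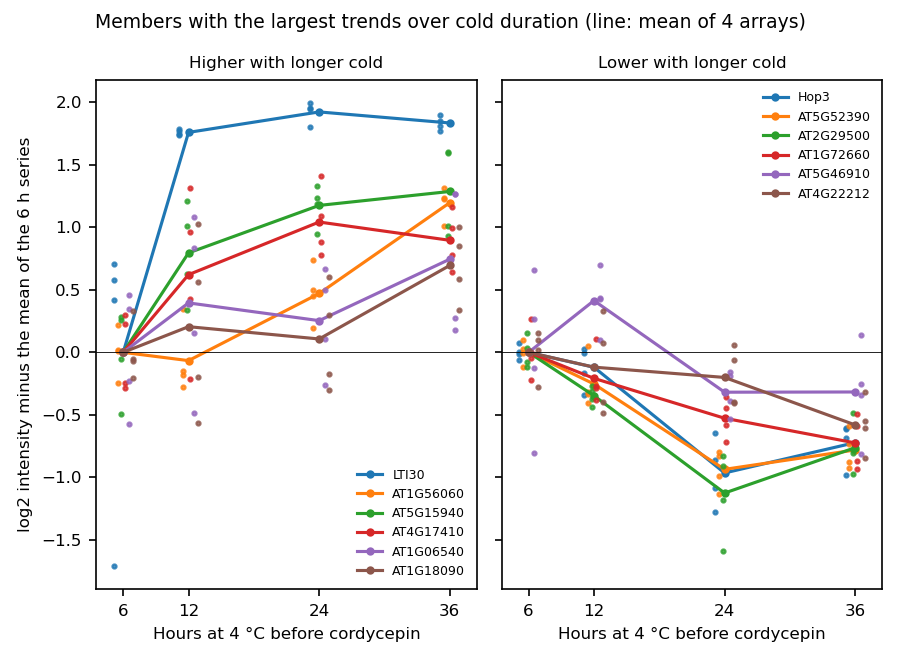
Log2 intensity minus the mean of the series of 6 h of cold (vertical axis) against hours at 4 °C before cordycepin (horizontal axis) for the 6 named members with the steepest rise and the 6 with the steepest fall. Points are the 4 arrays of a cold series, shifted sideways for legibility, and lines join their means; LTI30 steps up between 6 h and 12 h, and Hop3 is lower at 24 h and 36 h.

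Of the 56 named members, 4 (7.14%) are pseudogenes in the annotation, against 80 of 6977 (1.15%) of the genes tested. None is an organelle gene. By chromosome 1 to 5 the members number 17, 4, 9, 13 and 13, or 30.4%, 7.14%, 16.1%, 23.2% and 23.2%, against 25.9%, 14.2%, 20.1%, 15% and 23.8% of the genes tested. Probe sets of the kinds that can match several transcripts make up 6.74% of the members, against 3.84% of those tested. AT1G53540 and GSTU28 were the only members within 100 kb of each other. These shares were not tested.

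Of the probe sets past the minimum, 872 had a gain of at least 1 at 4 h but under 1 at 0.5 h at 22 °C. Their median gain at 4 h was also lower than the members', 2.03 for the members and 1.25 for these, so the lists are not alike in the later gain either. By 12 h in the cold 76.4% of the members were higher and 0.0% lower, with a median change of 0.69, against 40.7% and 2.06% of these slower risers, with a median of 0.22. The difference between the lists was not tested.

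Among the gene lists set up for stress and RNA turnover, only that of heat shock proteins and factors held members. Of its 11 genes, 3 were matched to a single gene name and tested, and 2 of these are members. The remaining one, ATHSP22.0, also a small heat shock gene, had gains of 0.21, 1.05 and 0.56 at 0.5, 2 and 4 h at 22 °C and a 12 h change in the cold of -0.04 ± 0.17 (adjusted p = 0.885). None of the 3 was called at 12 h.

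Of 19 rapid stress genes listed, only 2 were matched to a single gene name, WRKY53 and STZ. Both fell by 12 h in the cold, by 2.11 ± 0.35 and by 2.42 ± 0.21, and had 4 h gains of -1.60 and -2.56 at 22 °C. Of 8 ubiquitin ligase genes of stress listed, 4 were matched and 3 tested. These U-box genes, PUB22, PUB23 and PUB19, fell by 1.46 ± 0.15, 1.73 ± 0.19 and 1.35 ± 0.22 by 12 h in the cold. Their 4 h gains at 22 °C were -1.40, -3.03 and 0.76. Of 8 mRNA decay factors tested, none was a member, LSM1A rose by 0.23 ± 0.07, UPF3 fell by 0.27 ± 0.07 and 6 did not pass. FY, of the cleavage and polyadenylation list, did not pass (0.18 ± 0.09, adjusted p = 0.129), and FAC1, the AMP deaminase of the adenosine list, rose by 0.34 ± 0.07 (0.00381). Of 7 reference genes, 2 rose and 1 fell. The jasmonate and abscisic acid lists had no gene that could be matched, and the 4 matched genes of the AATP1 ATPase family did not pass the minimum.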

How the data were processed

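RNA of 20 T87 cultures, 1 array per condition, was read on arrays. The deposited values are intensity summaries of probe sets, made by the authors with RMA in the affy package, per the submitters' processing notes, which give no version or parameters. RMA scales arrays to one another, so changes are relative to other transcripts. Log2 was taken here. Probe sets with an intensity of at least 61.4 on 2 arrays were kept. Cold arrays were fitted with limma 3.58.1 in R 4.3.3 (lmFit, eBayes with trend), as cold series plus cordycepin time with 9 residual degrees of freedom, or as a slope per series with 8. Tests are two-sided, adjusted over 12801 probe sets, threshold 0.05. On simulated data for the 12 h change, 68% of changes of 0.5 and 93% of changes of 1 log2 unit were recovered among 100 each. The members and gene lists were chosen with earlier results of these data known. Genes named are the 15 largest smaller gains, 5 on each side of the threshold, the largest and smallest levels and changes in each test, and listed genes. Genes come from the platform table and 13436 matched TAIR10.1. No annotation used here gives protein families, so roles are background knowledge, and no sequences were used. Some genes are not reported here. Alternatives were filters, centring, variance trend, single genes and leaving out a series.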

Additional observations from a re-analysis of the deposited data

Results flagged for a closer look

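Slopes after cordycepin differed among the 4 cold series by limma's F test for 10 members. That is 11.2% of the members, near the 12.2% of all probe sets. The range of the 4 slopes, in log2 units per hour, was 0.184 for ATG8H, 0.164 for AT1G18090, 0.118 for AT5G46910, 0.110 for AT4G30470, 0.0904 for AT4G17410 and 0.0770 for AT1G72660. For the remaining 4, probe sets without a single gene name, it was 0.220, 0.121, 0.104 and 0.0647. A single call was left without the series of 6 h of cold, where 0.281% of all probe sets were called.

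All 4 cold slopes were below 0 for AT5G27460, with a mean cold slope of -0.0178, and for AT2G29500, with -0.0183. Their gains at 22 °C were all above 0, which the rule fixes at 0.5 h and 4 h for every member. The difference between temperatures was not tested.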

How the results depend on the processing

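No paired analysis was possible because each condition has 1 array and so no replicate numbers to pair. The cold series themselves are blocks in the fits of cordycepin time. Members called higher at 12 h over 0 h in the cold numbered 68, with 0 lower, and 40 and 4 on the poly(A) control scale, which was chosen after seeing the data. They numbered 40 of the 58 members left by a filter on the cold arrays alone, and 45 of the 56 single genes. These 2 settings test fewer members, and the cause of the other moves was not tested. For the change between 4 h and 12 h the counts were 22 and 2 lower on the poly(A) control scale, 30 with the cold filter and 33 single genes, against 55. For the slope they were 46 and 47 with the cold filter and single genes, against 74, and the count lower was 0 with arrays centred on their median or on reference genes and 5 on the poly(A) control scale, against 1. Over cold duration 13 single genes rose, against 23, and 7 members fell on the poly(A) control scale, against 13. Slopes differed for 3 on that scale and for 6 single genes, against 10. On the poly(A) control scale the shares of all probe sets were also lower, 8.37% falling and 3.71% with differing slopes, against 28.6% and 12.2%. At 22 °C the rule chose 180 probe sets with arrays centred on their median, 162 with a minimum gain of 0.8, 58 with the cold filter and 8 on the poly(A) control scale, against 89. Leaving out each cold series in turn gave 57 to 65 at 12 h, 30 to 52 with 0 to 1 lower between 4 h and 12 h, 9 to 26 rising and 10 to 15 falling with cold duration, 69 to 72 rising slopes with 0 to 1 falling, 1 to 8 differing slopes and 0 at 4 h. The 12 h change of 7 genes that were not called turned its sign. For AT1G53540 it was 0.0400 and for AT1G56060 0.0954 with arrays centred on their median, and 0.0342 for AT1G56060 on reference genes. On the poly(A) control scale it was -0.103 for AT1G72660, -0.0181 for AT3G05430, -0.00913 for AT4G30470 and -0.253 for Hop3. Without 1 series it was -0.20 to 0.13 for AT1G56060, -0.10 to 0.16 for Hop3 and -0.0280 to 0.71 for LTI30. For the genes named, the 12 h call kept its direction and side of the threshold in 334 comparisons of a gene with an alternative, was lost in 29 and gained in 11, and the trend call was kept in 120 and lost in 11. Low intensity limits the values of the 29 members that never reached the minimum in the cold.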

Other observations

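Across the 89 members the 12 h change in the cold and the gain at 22 °C had a Spearman rho of 0.51 for the 0.5 h gain and 0.43 for the 4 h gain. Over all 12801 probe sets the values were 0.63 and 0.49. The rule kept only gains of at least 1, which narrows the members' range, so their values cannot be ranked against those of all probe sets. Probe sets also share the arrays and their scaling, so these are descriptions. The largest gains of all belonged to probe sets without a single gene name. The 2 of these that rose most by 12 h in the cold did so by 2.17 and 2.14.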
